A study of Homo sapiens with 6 samples.

Results

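The genes described here encode deubiquitinases of the ubiquitin-specific protease (USP), ovarian tumour domain (OTU) and ubiquitin C-terminal hydrolase (UCH) families, CYLD among them. They were taken as a list of 52 symbols, and 48 of them had at least 1 probe set carrying a single gene symbol in the platform annotation. USP10, USP15, USP32 and BAP1 had none and were not analysed here. The 48 genes had 157 such probe sets, of which 129 passed a filter on low signal, and all 48 genes were among the 12935 genes tested. Of the 48, 45 lay above the filter in all 4 groups, while OTUB2, UCHL1 and USP5 did so in fewer groups.

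Ubiquitin is attached to proteins singly or as chains whose linkage decides whether the protein is degraded, moved or used as a signalling scaffold. Deubiquitinases cut these links, and most of those listed are cysteine proteases that recognise particular chains, substrates or cofactors. CYLD removes lysine 63-linked and linear chains from adaptors such as NEMO and TRAF2 and thereby restrains NF-κB. Other members act on TGF-β receptors and SMADs, on p53 and its partners, on histones, at the proteasome or on membranes. The array measures their transcripts and not their protein or activity.

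The cells were SAS, a human line established from oral squamous cell carcinoma, which received an siRNA against CYLD (siCYLD) or a control siRNA (siCtrl). After 2 days in culture they spent 48 h in serum-free medium with either an ALK5 inhibitor, which blocks the kinase of the type I TGF-β receptor, or DMSO. The 6 arrays comprised siCYLD with inhibitor (1), siCtrl with inhibitor (1), siCYLD with DMSO (2) and siCtrl with DMSO (2), and the DMSO groups are called untreated below. Each array was made from 2 µg of total RNA. The comparisons ask how selective the CYLD siRNA was among deubiquitinase transcripts and whether others moved with it or with ALK5 inhibition. The labels name no further CYLD siRNA and no rescue, so loss of CYLD and other actions of the same siRNA cannot be told apart. Nor do they say whether duplicates came from separate cultures, so the p-values cover the spread among the arrays alone, which can be technical.

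On 2 arrays the labels conflicted. The source name was that of control siRNA on the array titled siCYLD replicate 1, and that of CYLD siRNA on the array titled siCtrl replicate 2. Titles were used for grouping. The siRNA and inhibitor results are also given without these 2 arrays, by a model of siRNA and inhibitor over the other 4. That model holds 1 array per group. Its siRNA difference averages the untreated pair left with the inhibitor pair, so it is not the untreated difference with arrays removed. For each gene its residual spread is only how far the 2 pairs differ, so these p-values hold no spread between duplicates. The interaction could not be tested without the 2 arrays, and the inhibitor pair does not contain them. The trimmed mean signal was 499.94 on every array and the median signal 73.4 to 84.8. The correlation across genes was 0.988 between the siCYLD duplicates and 0.9867 between the siCtrl duplicates. Between untreated arrays titled with different siRNAs it was 0.964 to 0.966. Of 8 squamous epithelial markers, 5 had a single-symbol probe set: the summed signal was 39851 in siCYLD and 48845 in siCtrl cells with inhibitor, and 34790 to 35663 in siCYLD and 37958 to 38162 in siCtrl cells without it. CDH1 read 11742 to 15156 and EPCAM 20221 to 21944, whereas KRT14, a basal keratin, lay between 62.3 and 148. KRT5 read 5595 in siCYLD and 12525 in siCtrl cells with inhibitor, against 900 and 968 in siCYLD and 1094 and 1245 in siCtrl cells without. DSG3, a desmosomal cadherin, read 488 in siCYLD and 1113 in siCtrl cells with inhibitor, and 754 and 820 in siCYLD against 1211 and 1261 in siCtrl cells without. The 4 leukocyte markers summed to 247 to 380 and the 4 fibroblast markers to 625 to 826, with PTPRC at 42.3 or less. The 3 endothelial markers summed to 844 and 946 with inhibitor (siCYLD, siCtrl), against 229 to 339 without, mostly through CDH5. One measure of RNA quality moved with the siRNA: the ACTB 3′ to 5′ signal ratio was 2.38 in siCYLD and 3.67 in siCtrl cells with inhibitor, and 2.26 and 2.48 in siCYLD against 3.41 and 3.21 in siCtrl cells without it. The median signal of 18 poly-A spike probe sets also separated the siRNAs, at 1054 to 1148 in the siCYLD arrays against 880 to 984 in the siCtrl arrays. The part of either in the differences below was not tested.

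Promoters are shown for the members whose transcripts were lower in siCYLD by the most on the log2 scale, which are CYLD, USP1 and USP47. RefSeq (GRCh38.p14) gave windows from 250 bases before to 50 bases after the annotated start for 44 of the 52 genes in the promoter table used here, and windows of USP31, USP24, USP42, BAP1, OTUD6B, USP48, USP9X and USP37 were not used. Both strands were searched for TTTNNCGC (an E2F site) and for the CCAAT box as spelled. Further searches were for TTTGAA as the cell cycle homology region, TGANTCA as an AP-1 site, CAGAC as a SMAD box and the NF-κB consensus. None of these motifs contains another. The CYLD window lies at chr16:50741836-50742135, the USP1 window at chr1:62436145-62436444 and the USP47 window at chr11:11841722-11842021, all on the plus strand. Capitals mark motif matches on either strand.
CYLD: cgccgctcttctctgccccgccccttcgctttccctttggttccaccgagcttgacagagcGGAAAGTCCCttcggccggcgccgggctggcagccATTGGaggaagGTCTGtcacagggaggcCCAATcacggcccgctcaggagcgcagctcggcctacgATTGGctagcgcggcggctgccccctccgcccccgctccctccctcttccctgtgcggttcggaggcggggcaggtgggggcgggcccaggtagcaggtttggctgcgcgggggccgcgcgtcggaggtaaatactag
USP1: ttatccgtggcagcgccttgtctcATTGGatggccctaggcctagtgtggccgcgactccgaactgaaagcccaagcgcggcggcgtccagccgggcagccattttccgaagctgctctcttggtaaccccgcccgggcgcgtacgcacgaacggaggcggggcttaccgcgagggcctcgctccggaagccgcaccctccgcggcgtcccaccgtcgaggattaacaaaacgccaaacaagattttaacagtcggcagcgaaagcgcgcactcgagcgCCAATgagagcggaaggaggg
USP47: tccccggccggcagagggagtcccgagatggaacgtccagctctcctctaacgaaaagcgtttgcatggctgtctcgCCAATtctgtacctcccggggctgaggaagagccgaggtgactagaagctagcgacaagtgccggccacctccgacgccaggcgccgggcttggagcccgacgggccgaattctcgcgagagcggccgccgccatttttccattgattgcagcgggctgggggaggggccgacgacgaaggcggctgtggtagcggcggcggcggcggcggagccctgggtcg
The CYLD window held 3 CCAAT matches, 1 match to the NF-κB consensus and 1 to CAGAC, while USP1 held 2 CCAAT matches and USP47 held 1. CCAAT was present in 15 of the 44 windows (34.1%) and in 35.8% of all 27305 windows. The NF-κB consensus was present in 2 of 44 (4.5%) against 5.7% of all, CAGAC in 15 (34.1%) against 45.2%, and TTTGAA in 3 (6.8%) against 15.5%. For TTTNNCGC the counts were 5 of 44 (11.4%) against 6.9%, and for TGANTCA 2 of 44 (4.5%) against 7.7%. A match describes these letters only.

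CYLD itself had 7 probe sets, of which 4 passed the filter and the others were not tested. Each of the 4 was lower in untreated siCYLD than in untreated siCtrl cells. Probe set 221903_s_at read 77.2 and 125 in siCYLD arrays, against 485 and 550 in siCtrl arrays. Its log2 difference was -2.21 ± 0.23 (± SE, 2 arrays against 2), which left 19.6% of the siCtrl signal. Probe set 39582_at read 134 and 147 in siCYLD against 351 and 355 in siCtrl, a log2 difference of -1.24 ± 0.19. The duplicates did not overlap on either probe set. For 221905_at the difference was -0.70 ± 0.21, and for 213295_at, which has the highest mean of the 4 and stands for the gene in the tests over genes, -0.80 ± 0.18. Each was called by limma with adjustment over 24537 probe sets (adjusted p = 2.97e-05, 0.000768, 0.0409 and 0.00882, in the order given). In the fit lacking both arrays with conflicting labels, 221903_s_at (-2.08, adjusted p = 0.0009) and 213295_at (-0.86, 0.0404) were called, 221905_at (-0.87, 0.0534) and 39582_at (-0.92, 0.0552) were not.

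By probe set 213295_at, CYLD read 278 and 230 in untreated siCYLD arrays, against 411 and 500 in untreated siCtrl arrays. The groups did not overlap, and 55.9% of the siCtrl signal was left. The adjusted p over 12935 genes was 0.0065. Leaving out siCtrl replicate 2 gave -0.66 with an adjusted p of 0.0584, and leaving out both arrays with conflicting labels gave -0.86 with an adjusted p of 0.0247. Grouping by source name gave 0.0080.

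Among the 129 member probe sets, ordered by their knockdown difference, the 4 of CYLD stood at positions 1, 2, 6 and 8. The first 2 were the only member probe sets past a 2-fold difference in either direction, a size reached by 4.79% of all kept probe sets. Position 3 was taken by the USP22 probe set 216957_at, which read 10.3 and 5.7 in siCYLD against 34.8 and 23.2 in siCtrl. All 4 values lay below the filter at a signal of 79.33, which this probe set passed through the siCtrl array with inhibitor (98.4), so its difference was not interpreted. Positions 4 and 5 were both USP1 probe sets. Over the whole array, 29 kept probe sets (0.118%) were as low as 221903_s_at or lower.

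Of the 48 members, 10 were called between untreated siCYLD and untreated siCtrl cells at an adjusted p under 0.05 (20.8%), against 21.3% of all 12935 genes. USP31 and USP14 were higher (9.49% of all genes were) and CYLD, USP1, USP47, USP11, USP30, USP40, USP8 and OTUD1 were lower (11.8% of all genes were). The median log2 difference was -0.08 over the members and -0.04 over all genes, and the median absolute difference 0.22 against 0.24. At an unadjusted p under 0.05 there were 19 members (39.6%), against 34.2% of all genes. The duplicates of siCYLD and siCtrl did not overlap for 37 members (77.1%), against 60.9% of all genes. The 38 members not called lay between -0.41 (USP2) and 0.90 ± 0.38 (OTUB2, which lies near the filter). Without the 2 arrays with conflicting labels, CYLD, USP1, USP31 and USP47 kept their calls and no other member was called. Fewer genes were called over the whole array in that fit too. With 1 untreated array left out, USP30 (-0.44 to -0.39) lost its call whichever array it was, and USP14 (0.23 to 0.31), USP40 (-0.52 to -0.30) and USP8 (-0.47 to -0.32) lost theirs for each array except siCtrl replicate 1. OTUD1 lost its call without siCYLD replicate 1 (-0.30, adjusted p = 0.0876).

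**Figure D1:**
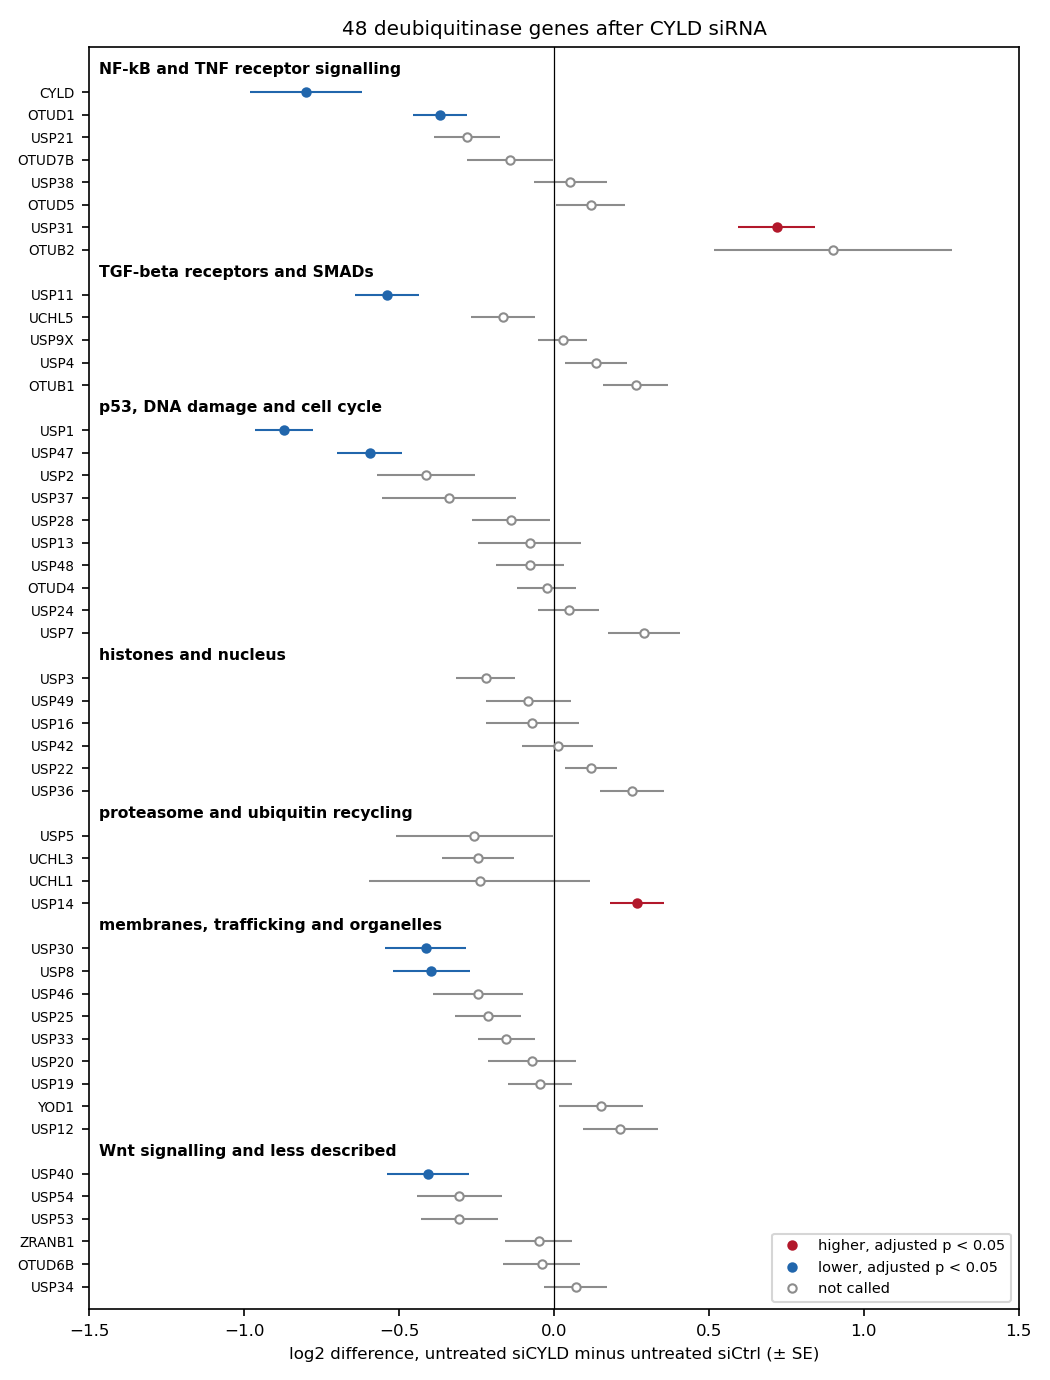
Log2 difference of untreated siCYLD minus untreated siCtrl cells (2 arrays each, bars ± SE) for 48 deubiquitinase genes grouped by role, filled where called at an adjusted p under 0.05. The 2 called higher are USP31 and USP14, and the 8 called lower run from USP1 at -0.87 to OTUD1 at -0.37.

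Among the 8 members acting in NF-κB and TNF receptor signalling, 3 were called (37.5%, against 21.3% of all genes). By the probe set of highest mean, USP31 rose and CYLD and OTUD1 fell with the siRNA. USP31, an enzyme implicated in NF-κB control in cell-based assays, read 1327 and 1455 in siCYLD, against 914 and 767 in siCtrl. Both siCYLD arrays lay above both siCtrl arrays, and the log2 difference was 0.72 ± 0.12 (adjusted p = 0.00112). The USP31 probe sets 226033_at and 226035_at had differences of 0.86 ± 0.13 and 0.79 ± 0.13. OTUD1, an OTU enzyme that prefers lysine 63-linked chains, read 8381 and 9213 in siCYLD against 11348 and 11355 in siCtrl. Its difference was -0.37 ± 0.09 (adjusted p = 0.00913). Over treated and untreated cells without the arrays with conflicting labels it was -0.33 and not called. The other kept OTUD1 probe set, 231035_s_at, stood at 0.13 in the fit without those arrays, with the opposite sign. USP21, OTUD7B, USP38, OTUD5 and OTUB2 were not called.

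Of the 5 measured members that act on TGF-β receptors or SMADs, 1 was called, against 21.3% of all genes. This was USP11, which was lower. USP11, which removes ubiquitin from the TGF-β type I receptor, read 2321 and 2481 in siCYLD against 3315 and 3687 in siCtrl, with no overlap. The log2 difference was -0.54 ± 0.10 (adjusted p = 0.00244). With the inhibitor USP11 read 2471 in siCYLD and 2511 in siCtrl. Without the arrays with conflicting labels, in a model that spans treated and untreated cells, the difference was -0.22 (adjusted p = 0.501). USP4, which also deubiquitinates the type I receptor, had a difference of 0.14 ± 0.10 and UCHL5, a receptor-associated and proteasome-bound hydrolase, one of -0.16 ± 0.10. OTUB1, which blocks ubiquitin-conjugating enzymes, stood at 0.26 ± 0.10 and USP9X, which acts on SMAD4, at 0.03 ± 0.08. None of these 4 was called.

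Of the 10 members tied to p53, DNA damage and the cell cycle, 2 were called, against 21.3% of all genes. These were USP1 and USP47, both lower. USP1, which with its cofactor WDR48 deubiquitinates FANCD2 and PCNA, read 2986 and 2776 in siCYLD, against 5150 and 5415 in siCtrl. The siCYLD arrays lay far below the siCtrl arrays and 54.5% of the signal was left, with a log2 difference of -0.87 ± 0.09 (adjusted p = 2.39e-05). Its other probe set, 202412_s_at, gave -0.85 ± 0.13. Over treated and untreated cells without the arrays with conflicting labels, the USP1 difference was -0.67, and it was -0.46 in the inhibitor pair alone. USP47, which acts on DNA polymerase β in base excision repair, read 1596 and 1528 in siCYLD and 2367 in both siCtrl arrays. Its log2 difference was -0.59 ± 0.11 (adjusted p = 0.00134). Over treated and untreated cells without the arrays with conflicting labels it was -0.66, with -0.69 in the inhibitor pair alone. The 5 kept probe sets of USP47 had differences of -0.29 to -0.66, and 3 of them were called. USP7, the deubiquitinase of MDM2 and p53, had a difference of 0.29 ± 0.12 that was not called.

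None of the 6 histone-directed or nuclear members was called, against 21.3% of all genes. The outermost were USP3, an H2A deubiquitinase, at -0.22 ± 0.10 and USP36, a nucleolar enzyme, at 0.25 ± 0.10. Among the 4 that work at the proteasome or recycle ubiquitin, USP14 alone was called (25.0%, against 21.3% of all genes). USP14, which trims chains on proteasome-bound substrates, read 8337 and 7887 in siCYLD against 6906 and 6564 in siCtrl. The groups did not overlap, and the log2 difference was 0.27 ± 0.09 (adjusted p = 0.0453). Its probe sets 226567_at and 201671_x_at gave 0.46 ± 0.10 and 0.40 ± 0.10. Over treated and untreated cells without the arrays with conflicting labels, the USP14 difference was 0.37 and not called. In the inhibitor pair alone it was 0.54.

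Of 9 members at membranes and organelles, USP30 and USP8 were called (22.2%, against 21.3% of all genes), both lower. USP30, which sits on the outer mitochondrial membrane and opposes mitophagy, read 593 and 602 in siCYLD against 788 and 816 in siCtrl, a log2 difference of -0.41 ± 0.13 (adjusted p = 0.0397). USP8, which spares endosomal receptors from lysosomal degradation, read 735 and 763 in siCYLD against 941 and 1043 in siCtrl, a difference of -0.40 ± 0.12 (adjusted p = 0.0381). Neither gene's duplicates overlapped. USP40, a less described member grouped with the Wnt regulators, read 661 and 622 in siCYLD against 790 and 926 in siCtrl, again apart, with a difference of -0.41 ± 0.13 (adjusted p = 0.0427). Over treated and untreated cells without the arrays with conflicting labels, USP30 stood at -0.60, USP8 at -0.39 and USP40 at -0.41. None of the 3 was called there. In the inhibitor pair, which enters those values, the differences were -0.82 for USP30, -0.48 for USP8 and -0.49 for USP40. By families, 9 of 36 USP genes were called (25.0%, 2 higher and 7 lower), 1 of 9 OTU genes (11.1%) and none of 3 UCH genes, against 21.3% of all genes.

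**Figure D2:**
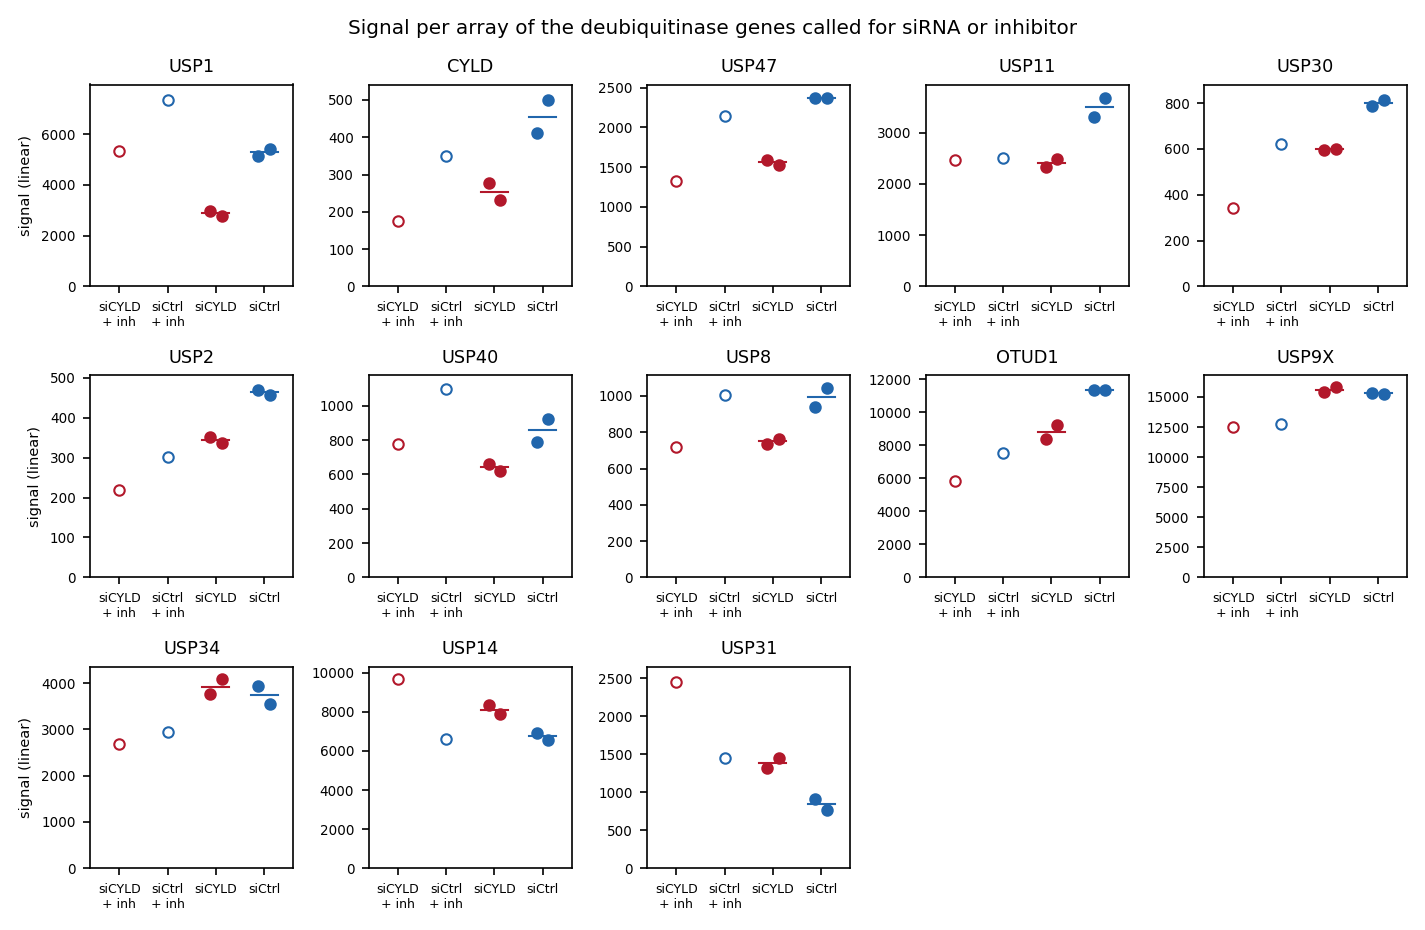
Signal per array on a linear scale from 0 for each member called for siRNA or inhibitor, with points for arrays and lines for duplicate means (siCYLD red, siCtrl blue, open with inhibitor). USP1 and USP31 are higher and OTUD1, USP2 and USP30 lower with inhibitor in both siRNA backgrounds.

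Probe sets of a member did not always move together. Of the 129, 25 were called between untreated siCYLD and siCtrl cells (19.4%), against 16.8% of all kept probe sets. Of these, 8 were higher (7.7% of all were) and 17 lower (9.06% of all were). They belonged to 15 genes. Of 38 members with several kept probe sets, 18 had differences of both signs, although no member had probe sets called in both directions. The matching shares over all genes were not counted, so this was not read as a trait of deubiquitinases. In 8 genes a dimmer probe set was called while the one of highest mean was not by the test over genes: OTUB1, USP21, USP24, USP25, USP33, USP53, USP7 and USP9X. The reverse held for USP30, USP40 and USP8, which were called over genes but had no probe set called with the adjustment over 24537 probe sets.

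The examples that follow were chosen after their values were seen. For USP9X, probe set 229573_at read 2106 and 2238 in siCYLD against 1068 and 1299 in siCtrl, a log2 difference of 0.87 ± 0.13 (adjusted p = 0.000431). Its probe set of highest mean, 201100_s_at, had a difference of 0.03 ± 0.08, and 201099_at one of -0.05 ± 0.09. USP25 behaved the other way: 223167_s_at read 312 and 352 in siCYLD against 552 and 594 in siCtrl (log2 difference -0.76 ± 0.14, adjusted p = 0.00334), while 220419_s_at stood at -0.21 ± 0.11. For USP24, 212381_at had a difference of -0.64 ± 0.14 (adjusted p = 0.00653) and 212388_at one of 0.05 ± 0.10. Both dimmer kept probe sets of USP53, found at tight junctions, were lower, at -0.64 ± 0.13 and -0.61 ± 0.17. With the arrays of conflicting labels left out, 10 member probe sets were called, among them those of USP9X (1.12, adjusted p = 0.004), USP24 (-0.71, 0.0458) and 1 of USP53 (-0.75, 0.0369), but not that of USP25 (-0.58, 0.103). The matching share of all probe sets is not given here, so the 10 were not read as a result about the members. The files do not place the probe sets on transcripts, so which isoforms they report was not analysed here.

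**Figure D3:**
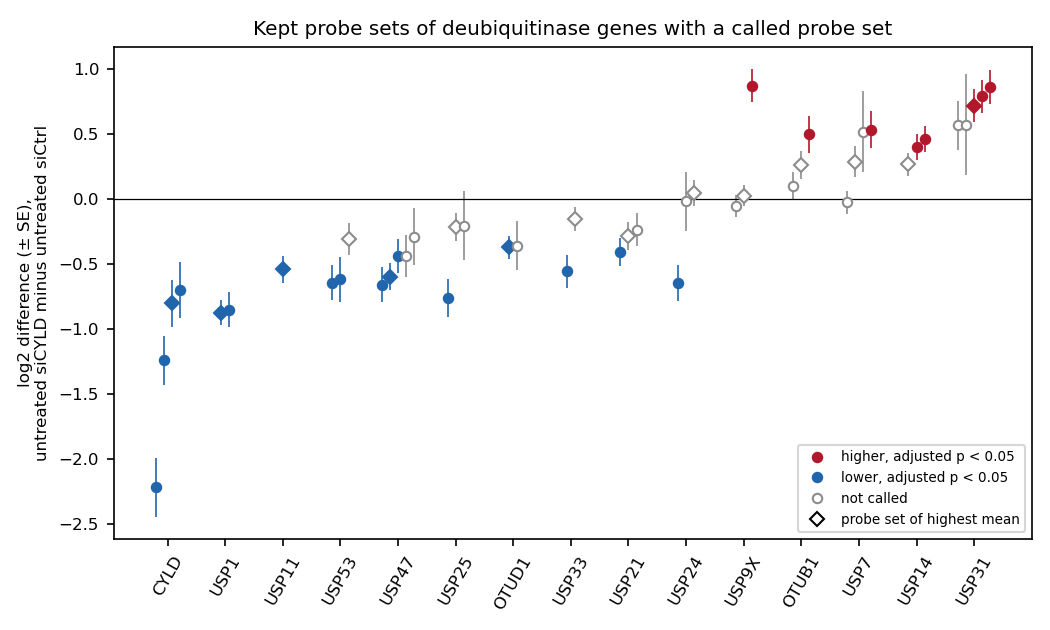
Log2 difference of untreated siCYLD minus untreated siCtrl cells (± SE, 2 arrays each) for each kept probe set of the 15 members with a called probe set, diamonds marking the probe set of highest mean. CYLD spans -2.21 to -0.70, and the USP9X probe set at 0.87 stands apart from its other probe sets near 0.

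In cells given the ALK5 inhibitor there was 1 array per siRNA, so these differences have no replicate check. CYLD read 176 in siCYLD against 349 in siCtrl with inhibitor, a log2 difference of -0.93. Past 1.5-fold, 4 members were higher in siCYLD (8.33%, against 10.8% of all genes) and 6 were lower (12.5%, against 9.67%). The higher ones were USP31 at 0.75, OTUB1 at 0.67, UCHL1 at 0.67 and USP7 at 0.59. The lower ones were USP46 at -1.12, CYLD, USP30 at -0.82, USP47 at -0.69, USP28 at -0.68 and USP5 at -0.60. USP46, which shares the cofactors WDR48 and WDR20 with USP12, read 527 in siCYLD against 1161 in siCtrl with inhibitor. Without inhibitor it read 954 and 909 in siCYLD against 951 and 1288 in siCtrl, where the groups overlapped. UCHL1, at 86 in siCYLD against 48 in siCtrl with inhibitor, lay near the filter.

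The untreated arrays and the inhibitor pair share no array. The sign of the siCYLD minus siCtrl difference was the same in both for 33 of 48 members (68.8%) and for 69.0% of all genes. All 10 members called in untreated cells had the same sign in the inhibitor pair, as did 88.3% of all called genes. Across members the correlation of the log2 differences was 0.65 (n = 48), or 0.62 without CYLD (n = 47), against 0.51 across all genes. For USP1 the difference was -0.46 with inhibitor and -0.87 in untreated cells, and for USP11 it was -0.02 with inhibitor and -0.54 in untreated cells. OTUD1 stood at -0.37 in each, and USP14 at 0.54 with inhibitor and 0.27 in untreated cells.

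**Figure D4:**
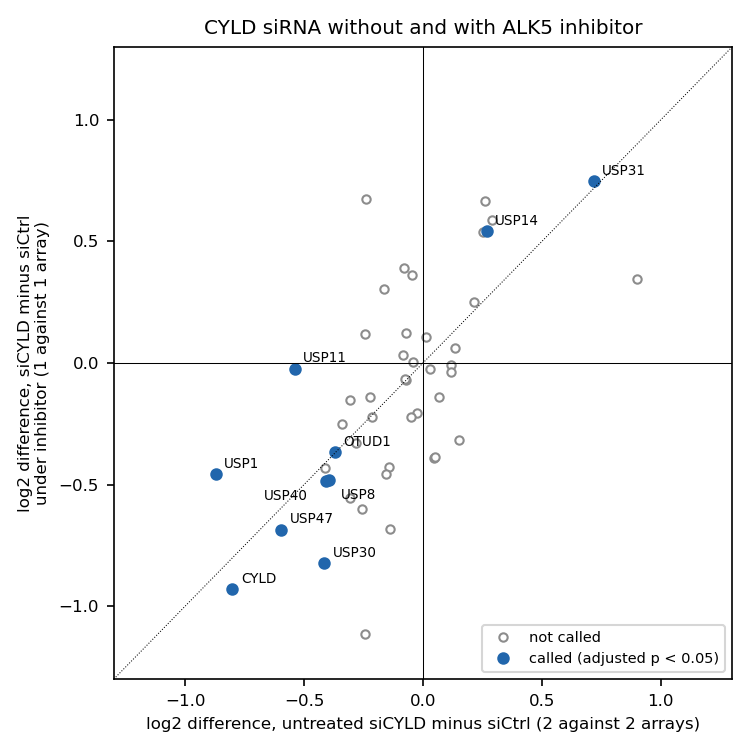
Log2 difference of siCYLD minus siCtrl with inhibitor (1 array each, vertical) against the same difference in untreated cells (2 arrays each, horizontal) for 48 members, filled where called in untreated cells, with a dotted line of equality. All 10 called members share their sign, and USP11 lies close to 0 on the vertical axis.

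Fitted over all 6 arrays with siRNA and inhibitor as terms, the CYLD siRNA gave 16 called members (33.3%, against 21.5% of all genes), 5 higher (9.97% of all genes) and 11 lower (11.6% of all genes). They included the 10 above. The 6 added ones were OTUB1 at 0.40, USP7 at 0.39 and USP36 at 0.35, which were higher, and USP2 at -0.42, USP53 at -0.39 and USP21 at -0.30, which were lower. For USP36 this is the probe set of highest mean, 227093_at. Without the arrays with conflicting labels its other kept probe sets stood at -0.02, -0.02 and -0.25. None of these 6 was called by that model without the arrays with conflicting labels, where OTUB1 stood at 0.41 (adjusted p = 0.167), USP7 at 0.32 (0.279), USP36 at 0.44 (0.125), USP2 at -0.45 (0.25), USP53 at -0.41 (0.185) and USP21 at -0.31 (0.304).

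The test for a different siRNA effect with the inhibitor (interaction, limma) called none of the 48 members, against 1.67% of all genes (0.982% with a positive and 0.688% with a negative value). At an unadjusted p under 0.05 there were 8 members (16.7%, against 13.7% of all genes): OTUB1, UCHL5, USP1, USP11, USP19, USP24, USP28 and USP46. USP46 had an interaction of -0.87 with an adjusted p of 0.129. It was called without siCYLD replicate 1 (-0.84), without siCYLD replicate 2 (-0.91) and without siCtrl replicate 2 (-1.09). These fits leave 1 array in an untreated group, and more genes were called over the whole array in them too. For the siRNA, without the arrays with conflicting labels, the USP46 probe set 203870_at stood at -0.59, 203869_at at -0.59 and 222941_at at 0.07. For USP11 the interaction was 0.52 with an adjusted p of 0.203, so its larger difference in untreated cells was not separated from that with inhibitor.

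The inhibitor itself, compared with DMSO across both siRNAs, gave 7 called members (14.6%), against 20% of all genes. USP31 and USP1 were higher (11.2% of all genes were) and USP2, OTUD1, USP30, USP34 and USP9X were lower (8.82% of all genes were). The median log2 difference was -0.06 over the members and 0.01 over all genes, and 13 members (27.1%) had an unadjusted p under 0.05, against 34.1% of all genes. The 41 members not called lay between -0.55 (USP5) and 0.35 (UCHL5). This comparison uses the same untreated arrays as the siRNA comparison.

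USP31 read 2447 in siCYLD and 1449 in siCtrl cells with inhibitor, against 1327 and 1455 in siCYLD and 914 and 767 in siCtrl cells without. Each inhibitor array lay above the untreated arrays of its own siRNA, and the log2 difference was 0.79 ± 0.11 (adjusted p = 0.00112). USP1 read 5348 in siCYLD and 7346 in siCtrl cells with inhibitor, against 2986 and 2776 in siCYLD and 5150 and 5415 in siCtrl cells without. It too was higher within each siRNA, by 0.89 in siCYLD and 0.47 in siCtrl cells, and by 0.68 ± 0.11 across both (adjusted p = 0.00206). The siRNA difference of USP1 in untreated cells, given above, had the opposite sign (-0.87), while both differences of USP31 were above 0.

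OTUD1 read 5826 in siCYLD and 7522 in siCtrl cells with inhibitor, against 8381 and 9213 in siCYLD and 11348 and 11355 in siCtrl cells without. Each inhibitor array was the lowest of its siRNA, with a log2 difference of -0.59 ± 0.08 (adjusted p = 0.000977) that was -0.59 within each siRNA. USP2, which acts on MDM2 and cyclin D1, read 220 in siCYLD and 302 in siCtrl cells with inhibitor, against 352 and 336 in siCYLD and 469 and 457 in siCtrl cells without. Its difference was -0.60 ± 0.14 (adjusted p = 0.0121). USP30 read 343 in siCYLD and 620 in siCtrl cells with inhibitor, against 593 and 602 in siCYLD and 788 and 816 in siCtrl cells without, a difference of -0.57 ± 0.13 (adjusted p = 0.0131).

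USP34, which acts on axin in Wnt signalling, read 2677 in siCYLD and 2948 in siCtrl cells with inhibitor, against 3768 and 4079 in siCYLD and 3944 and 3540 in siCtrl cells without. The log2 difference was -0.44 ± 0.10 (adjusted p = 0.0119), and 3 of its 6 kept probe sets were called lower. USP9X read 12493 in siCYLD and 12714 in siCtrl cells with inhibitor, against 15379 and 15822 in siCYLD and 15357 and 15237 in siCtrl cells without, a difference of -0.29 ± 0.08 (adjusted p = 0.0203). Both inhibitor arrays lay below all 4 untreated arrays for USP34 and for USP9X. Without the arrays with conflicting labels OTUD1 (-0.63, adjusted p = 0.0133), USP1 (0.73, 0.00812) and USP31 (0.70, 0.013) kept their calls, and USP2 (-0.59, 0.0928), USP30 (-0.56, 0.0764), USP34 (-0.51, 0.0519) and USP9X (-0.31, 0.219) lost theirs. The calls of USP2, USP30, USP34 and USP9X were also lost without the siCYLD inhibitor array, where USP2 stood at -0.59 (adjusted p = 0.0667), USP30 at -0.36 (0.173), USP34 at -0.34 (0.109) and USP9X at -0.27 (0.109).

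By probe set, 19 of 129 were called for the inhibitor (14.7%), against 15.2% of all kept probe sets. Of these, 6 were higher (7.79% of all were) and 13 lower (7.45% of all were). In 4 genes only a dimmer probe set was called, namely OTUD7B, USP12, USP25 and USP47. For OTUD7B, which cuts lysine 11-linked chains, 238573_at read 215 in siCYLD and 235 in siCtrl cells with inhibitor, against 389 and 425 in siCYLD and 360 and 411 in siCtrl cells without. Its log2 difference was -0.77 (adjusted p = 0.00587), while that of 227436_at, the probe set of highest mean, was -0.06. Once both arrays with conflicting labels were left out 6 member probe sets were called, and 238573_at was not (-0.76, adjusted p = 0.062). The share of all probe sets called in that fit is not given here. The inhibitor minus untreated difference had the same sign within siCYLD and within siCtrl cells for 25 of 48 members (52.1%). Over all genes the share was 69.0%, and these comparisons share no array.

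**Figure D5:**
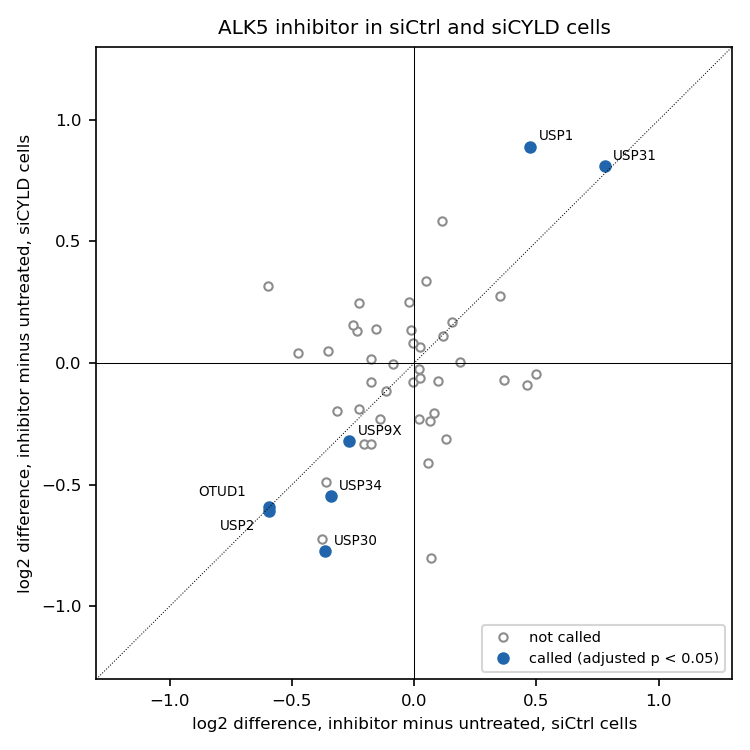
Log2 difference of inhibitor minus untreated cells within siCYLD (vertical, 1 array against 2) and within siCtrl (horizontal, 1 against 2) for 48 members, filled where called across both siRNAs, with a dotted line of equality. USP1 and USP31 lie in the upper right and OTUD1, USP2, USP30, USP34 and USP9X in the lower left, while the members not called scatter over all quadrants.

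Deubiquitinases and related proteins outside the 52 were taken from a further list of 39 genes, of which 28 were tested. Not all of them are active deubiquitinases. With the CYLD siRNA 9 of these were called (32.1%, against 21.3% of all genes), 3 higher (9.49% of all genes were) and 6 lower (11.8% of all genes were). TNFAIP3, the gene of A20, a feedback inhibitor of NF-κB, read 1978 and 2031 in untreated siCYLD cells, against 668 and 610 in untreated siCtrl cells (log2 difference 1.63 ± 0.11, adjusted p = 6.1e-07). In inhibitor-treated cells it read 7327 in siCYLD against 574 in siCtrl. The interaction was 2.01 (adjusted p = 0.000254), so the siRNA difference was larger with the inhibitor, where there was 1 array per siRNA. Without the intensity trend no gene was called for the interaction. USP43 at 0.92 and JOSD1 at 0.48 were also higher. PAN2, the nuclease subunit of a poly(A) deadenylase, whose USP-like domain is inactive as a deubiquitinase, was lower, with a difference of -0.90. MINDY2 (-0.75), STAMBPL1 (-0.72), EIF3H (-0.46), MYSM1 (-0.45) and BRCC3 (-0.36) were lower as well. When both arrays with conflicting labels were left out, in a model that spans treated and untreated cells, the calls of TNFAIP3 (2.61, adjusted p = 9.25e-06), PAN2 (-1.05), MINDY2 (-0.80) and MYSM1 (-0.67) were kept.

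With the inhibitor, 6 of the 28 were called (21.4%, against 20% of all genes). STAMBPL1, an endosomal metalloprotease of the AMSH family, was higher by 0.56 on the log2 scale, PAN2 by 0.40, USP45 by 0.39 and COPS6 by 0.36, whereas MINDY1 (-0.73) and USP35 (-0.42) were lower. Of these, STAMBPL1 (0.65) and MINDY1 (-0.69) kept their calls without the arrays with conflicting labels. Of 16 tested cofactors, 1 was called with the CYLD siRNA (6.25%, against 21.3% of all genes) and 3 with the inhibitor (18.8%, against 20%). HCFC1, the partner of BAP1, was lower with the siRNA, at 933 and 879 in siCYLD against 1518 and 1323 in siCtrl (log2 difference -0.64 ± 0.12, adjusted p = 0.00219). With inhibitor (1 array per siRNA) it read 1355 in siCYLD and 1111 in siCtrl, and the interaction was 0.92 (adjusted p = 0.0468). Over treated and untreated cells without the arrays with conflicting labels, the HCFC1 siRNA difference was -0.25 and not called. That value averages the untreated arrays left, at 879 in siCYLD and 1518 in siCtrl, with the inhibitor pair, where the difference was 0.28. STAM2, the endosomal adaptor that binds USP8, read 286 in siCYLD and 271 in siCtrl cells with inhibitor, against 529 in both siCYLD arrays and 590 and 581 in siCtrl cells without. Its inhibitor difference was -0.96 ± 0.13 (adjusted p = 0.000824), and WDR20 (-0.41) and OGT (-0.32) were lower too. STAM2 alone of these 3 kept its call without the arrays with conflicting labels (-0.96, adjusted p = 0.00503).

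Of 12 proteases of SUMO and other ubiquitin-like proteins, ATG4B, which processes the autophagy protein LC3, was higher with the siRNA (0.43) and SENP3, a nucleolar SUMO protease, with the inhibitor (0.42). Each was the only call of its test among the 12 (8.33%, against 21.3% of all genes for the siRNA and 20% for the inhibitor). Of 3 tested genes for ubiquitin and its activating enzymes, the polyubiquitin gene UBB was lower with the siRNA (-0.35) and UBA1, the main activating enzyme, with the inhibitor (-0.40). Here too each was the only call of its test (33.3%, against 21.3% and 20% of all genes). All 4 of these calls were lost without the arrays with conflicting labels, where ATG4B stood at 0.31 (adjusted p = 0.351), SENP3 at 0.38 (0.183), UBB at -0.07 (0.851) and UBA1 at -0.40 (0.129).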

How the data were processed

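The authors deposited a linear intensity for every probe set of each array, here called signal. Per the submitters' processing notes it came from MAS5. Its version and a genome build were not given in the sources used here. No scanner files were used. Arrays carry no read depth, and their number limits the precision.

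An offset of 16.06, at percentile 20 of all values, was added to each signal before log2, without further scaling. Fold changes on this scale understate those of dim probe sets. Of 54675 probe sets, 41091 had 1 gene symbol in the platform annotation, and 24537 of these had a group mean above the median of all values (signal 79.33) and were kept. The kept probe set with the highest mean stood for its gene, giving 12935 genes. Probe sets ending in _s_at or _x_at can match several transcripts. The 28 member probe sets below the filter, from 18 genes, read 90.9 at most.

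Models were fitted across all genes with limma 3.58.1 in R 4.3.3 (version 1.17.8 of data.table), with moderation following the intensity trend, two-sided tests and Benjamini-Hochberg adjustment over all genes or probe sets. Calls were at an adjusted p below 0.05. The siRNA difference and the interaction came from 4 group means (2 residual and 10.94 prior degrees of freedom), and the inhibitor difference from a model adding siRNA and inhibitor terms (3 and 7.978). A lone inhibitor array is taken to vary like the duplicates. The code was tested on simulated data. Summaries, the motif search and figures used Python 3.11.15, pandas 2.3.3 and matplotlib 3.10.9. Replicate numbers were not taken to pair the arrays: the siCYLD and siCtrl duplicate differences correlated at 0.04 across genes.

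The members and lists were chosen with earlier results of these data known. Named genes were CYLD, every member called in a test and members past 1.5-fold in the inhibitor pair. Members with no single-symbol probe set and called genes of the other lists were named too. Those lists held further deubiquitinases with related proteins, proteases of ubiquitin-like proteins, cofactors, and ubiquitin with its activating enzymes. Alternatives covered normalization, offset, filter, representation of genes, moderation, model, grouping, left-out arrays and the replicate block.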

Additional observations from a re-analysis of the deposited data

How the results depend on the processing

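The number of arrays per group (1 or 2) limits the precision, and signal near the filter limits OTUB2, UCHL1 and USP5. Offsets of 1 and 100, the stricter filter and robust moderation kept the member counts of the siRNA, inhibitor and interaction tests within 1.5 times. For the siRNA, 6 members were called after quantile normalization, 6 without the filter, 4 without the intensity trend, 4 without both arrays with conflicting labels and 16 in the additive model, against 10. Calls without the trend numbered 1219 genes and 6 member probe sets, and those without both conflicting arrays 1052 and 10. Without _x_at and _s_at probe sets 14 member probe sets were called. Grouping by source name, limma called 0 genes, 0 members and 0 member probe sets (80 genes and 0 members at an unadjusted p under 0.05), and the differences of CYLD (0.0080), OTUD1 (0.069), USP11 (0.12), USP14 (-0.077), USP30 (0.034), USP31 (-0.058), USP40 (0.070) and USP8 (0.10) changed sign.

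For the inhibitor, the mean of probe sets gave 11 members, no trend 4 members, 1087 genes and 8 member probe sets, no _x_at or _s_at probe sets 4 members and 9 probe sets, and no arrays with conflicting labels 3 members, 1325 genes and 6 probe sets. Interaction genes numbered 33 without the filter, 95 with probe set means, 134 without _x_at and _s_at probe sets and 0 without the trend (1480 at an unadjusted p under 0.05, limma), against 216. The cause was not tested.

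Leaving out 1 array gave 5 to 12 members (5 without siCYLD replicate 1, 6 without siCYLD replicate 2 or siCtrl replicate 2), 2151 to 2652 genes and 18 to 24 member probe sets for the siRNA, and a CYLD difference of -0.94 to -0.66. For the inhibitor it gave 4 to 10 members, 1232 to 2888 genes and 9 to 21 member probe sets, lowest without the siCYLD inhibitor array. Interaction genes ranged from 294 to 455 and members from 0 to 1. Under alternatives there were 266 values of single members other than the siRNA difference of CYLD. Of these, 204 kept direction and call, 55 lost the call and 7 changed sign, all 7 when grouped by source name.

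Same-numbered arrays share only a number. With the replicate block 13 members and 3688 genes were called for the siRNA and 1 member (USP46) and 723 genes for the interaction.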
